A study of Mus musculus with 12 samples.

Results

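Expression of 10 imprinted genes was examined in mouse embryonic stem cells (mESCs) carrying floxed *Prdm10*. The genes, matched by symbol among the 54146 genes counted in each library, were *H19*, *Igf2*, *Meg3*, *Rian*, *Mirg*, *Peg3*, *Peg10*, *Mest*, *Cdkn1c* and *Snrpn*. The study asked how transcription changes when PRDM10, a zinc finger transcription factor, is lost, using rRNA-depleted total RNA sequenced from 12 libraries. All 12 came from *Prdm10* F/F; *Rosa26*-CreERT2 mESCs of C57BL/6 background, in which Cre recombinase is fused to a mutated oestrogen receptor and becomes active when 4-hydroxytamoxifen (4-OHT, here OHT) is added. Cells received 50 nM OHT or the solvent ethanol (EtOH) for 24 h and were harvested on Day 2 or Day 4, giving the 4 groups Day2_EtOH, Day2_OHT, Day4_EtOH and Day4_OHT with 3 libraries each.

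Floxed alleles and the Cre transgene were shared by both arms, and no library came from cells that received OHT without floxed alleles, so that exposure to OHT, Cre activity and deletion cannot be told apart. The labels do not say whether the 3 libraries of a group came from separate cultures. The study's statistics section states that experiments had 3 or more independent biological repeats unless a legend says otherwise, without naming these libraries. The p-values measure only the spread between these libraries, which may be technical. Per the study's methods the cells were derived on feeder fibroblasts in 2i/LIF medium and grown for experiments on gelatin in serum and LIF.

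The libraries held 35017667 to 41409992 expected counts. The gene-level count of *Prdm10* itself was higher, not lower, in the libraries labelled OHT (2080.2 to 2225 against 767 to 821 normalised counts on Day 2, and 1965 to 2089.6 against 821 to 911 on Day 4). This count covers the whole gene and not the floxed exon alone, so it does not check the labels, and the arms are called by their labels throughout. All 6 mESC markers (*Pou5f1*, *Nanog*, *Sox2*, *Esrrb*, *Zfp42* and *Dppa5a*) were detected, with a summed level of 2023 to 2456 TPM (a level per unit of transcript length, scaled to one total in each library).

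An imprinted gene is read mainly from the copy inherited from one parent, because DNA methylation laid down in the egg or the sperm marks an imprinting control region near it. In the early embryo these marks are protected by zinc finger proteins such as ZFP57 with the corepressor TRIM28, and are copied at each division by DNMT1. Cultured embryonic stem cells are known for variable imprinted expression, since the marks can be lost or gained in culture. Of the 10 genes, 5 are known to be expressed from the maternal copy (*H19*, *Meg3*, *Rian*, *Mirg* and *Cdkn1c*) and 5 from the paternal copy (*Igf2*, *Peg3*, *Peg10*, *Mest* and *Snrpn*). Total RNA of an inbred strain carries no mark of parental origin, so the values below are summed over both copies.

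Promoters and a microRNA of the members bear on where these transcripts start and what they are cut into. Among 32851 RefSeq promoter windows on GRCm38.p6, each running from 250 bases before to 50 bases after a start, 7 of the 10 genes had an entry; *H19*, *Peg10* and *Cdkn1c* had none. Windows of *Peg3* and *Mest* are shown because these genes were called on Day 4 and on Day 2, respectively, and because the start regions of both are known to lie in imprinting control regions. Capitals mark each CG, the dinucleotide that is methylated on the silent copy. The *Peg3* window lies at chr7:6730370-6730669 on the minus strand, and the *Mest* window, 1 of 3 for that gene, at chr6:30737800-30738099 on the plus strand.
Peg3: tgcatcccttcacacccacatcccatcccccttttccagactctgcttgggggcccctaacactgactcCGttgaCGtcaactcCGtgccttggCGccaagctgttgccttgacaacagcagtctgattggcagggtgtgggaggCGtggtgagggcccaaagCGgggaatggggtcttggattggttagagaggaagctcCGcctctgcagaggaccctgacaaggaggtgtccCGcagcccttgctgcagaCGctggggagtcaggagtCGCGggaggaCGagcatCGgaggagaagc
Mest: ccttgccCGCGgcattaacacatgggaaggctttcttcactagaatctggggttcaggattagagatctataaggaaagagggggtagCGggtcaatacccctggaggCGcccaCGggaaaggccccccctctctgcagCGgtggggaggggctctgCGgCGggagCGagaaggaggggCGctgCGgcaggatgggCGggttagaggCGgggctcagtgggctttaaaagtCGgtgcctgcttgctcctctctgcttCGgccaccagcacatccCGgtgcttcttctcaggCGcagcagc

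The *Peg3* window held 13 CG and the *Mest* window 17, against a median of 7 over all windows, and 37.9% and 31.4% of all windows held at least as many as *Peg3* and *Mest*. TGCCGC, the hexamer that ZFP57 is known to bind when methylated, was searched on both strands. It occurred 2 times in the *Mest* window, 0 times in that of *Peg3*, and at least once in 11.6% of all windows. The *Mest* window shown was chosen for holding the most CG, so its values partly reflect that choice. The *Mest* window at chr6:30733256-30733555 held 8 CG and 0 TGCCGC. *Peg3* and *Usp29* are divergent neighbours whose annotated starts lie 147 bases apart, so the *Peg3* window also reaches past the *Usp29* start. The starts of *Peg10* and *Sgce* lie 99 bases apart in the same arrangement.

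*H19* is a non-coding RNA that also holds the hairpin of miR-675, and both arms map inside it on the minus strand, at chr7:142577112-142577133 (5p) and chr7:142577078-142577099 (3p). The RefSeq mature sequences are given with the seed (bases 2 to 8) in capitals; the 2 arms have different seeds. Mature microRNAs were not measured by these libraries.
miR-675-5p: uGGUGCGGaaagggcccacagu
miR-675-3p: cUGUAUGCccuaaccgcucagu

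By level per length, *Snrpn* led in every group, at 52.1 ± 0.415 TPM (SD, n = 3) in Day2_EtOH and 66.6 ± 3.75 TPM in Day4_EtOH. *Peg3* followed with 21.7 ± 1.70 TPM in Day2_EtOH, and then *H19* with 13.1 ± 1.45 TPM, *Peg10* with 8.11 ± 1.10 TPM, *Mest* with 5.84 ± 0.0794 TPM, *Rian* with 4.99 ± 0.723 TPM and *Cdkn1c* with 4.03 ± 0.385 TPM. In that group each gene's range lay apart from that of the next gene down, except that *Rian* and *Cdkn1c* overlapped. The order changed between groups: *Peg10* and *H19* overlapped in Day2_OHT, where *Peg10* reached 14.6 ± 1.27 TPM, *Peg10* overlapped *Mest* in Day4_EtOH, and *Peg10* stood below *Mest* in Day4_OHT at 6.68 ± 0.627 against 8.34 ± 0.542 TPM. The other 3 genes, *Meg3*, *Mirg* and *Igf2*, stayed at or below 1.33 TPM in every library.

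**Figure D1:**
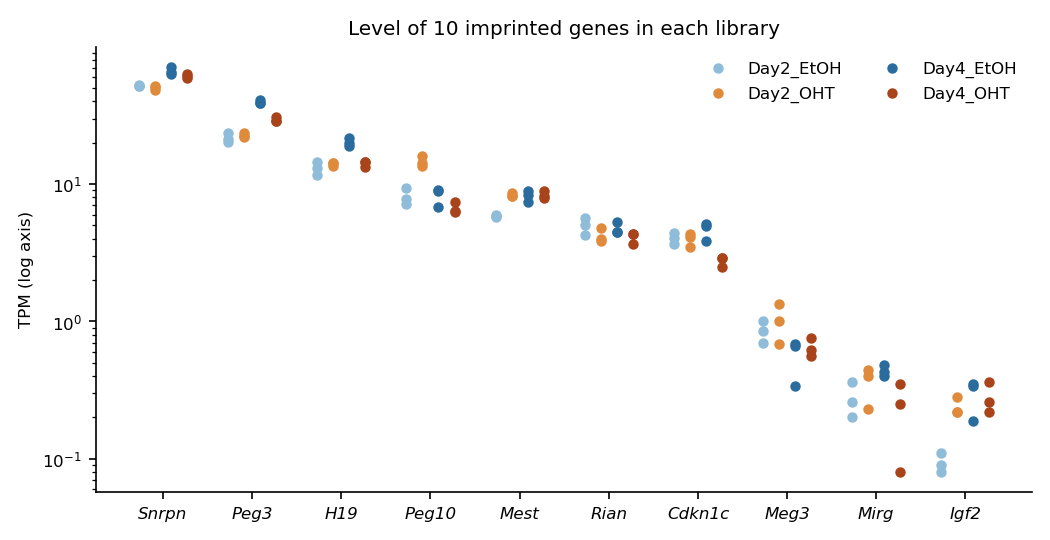
Level of each imprinted gene in TPM (log axis), 1 point per library and 1 colour per group of 3 libraries. *Snrpn* lies highest at 48.09 to 70.82 TPM, 7 genes lie above 2 TPM in every library, and *Meg3*, *Mirg* and *Igf2* lie at or below 1.33 TPM.

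*Igf2*, which encodes a fetal growth factor, had 8 to 31 expected counts per library, *Meg3* 34 to 79 and *Mirg* 10 to 29. None of the 3 reached the minimum mean of 100 normalised counts, and they were too low to judge. They were nonetheless detected in every library, above the floor of 3 counts. The other 7 genes were tested, 3 of the maternally and 4 of the paternally expressed group. They were called where the DESeq2 adjusted p was below 0.05. This adjustment was taken over all genes that passed DESeq2's own filter on low mean counts.

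On Day 2, *Peg10* and *Mest* were higher and *Snrpn* slightly lower in libraries labelled OHT than in those labelled EtOH. The 2 genes called higher, of 7 tested, stood against 9.17% of all 11642 tested genes called higher, and the 1 called lower against 10.7% (19.8% in either direction). With total counts as scaling, the genes called on Day 2 split into 1390 higher and 639 lower in place of 1068 and 1240, and *Snrpn* was no longer called. On Day 4, *Cdkn1c*, *H19* and *Peg3* were lower and no tested gene was called higher, while 21.7% of all 11552 tested genes were called lower and 23.5% higher (45.1% in either direction). The median log2 fold change of the 7 genes was -0.03 on Day 2 and -0.28 on Day 4, beside -0.03 and 0.01 over all genes tested. Because RNA came from bulk cultures, fewer cells expressing a gene and less RNA per cell cannot be told apart.

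**Figure D2:**
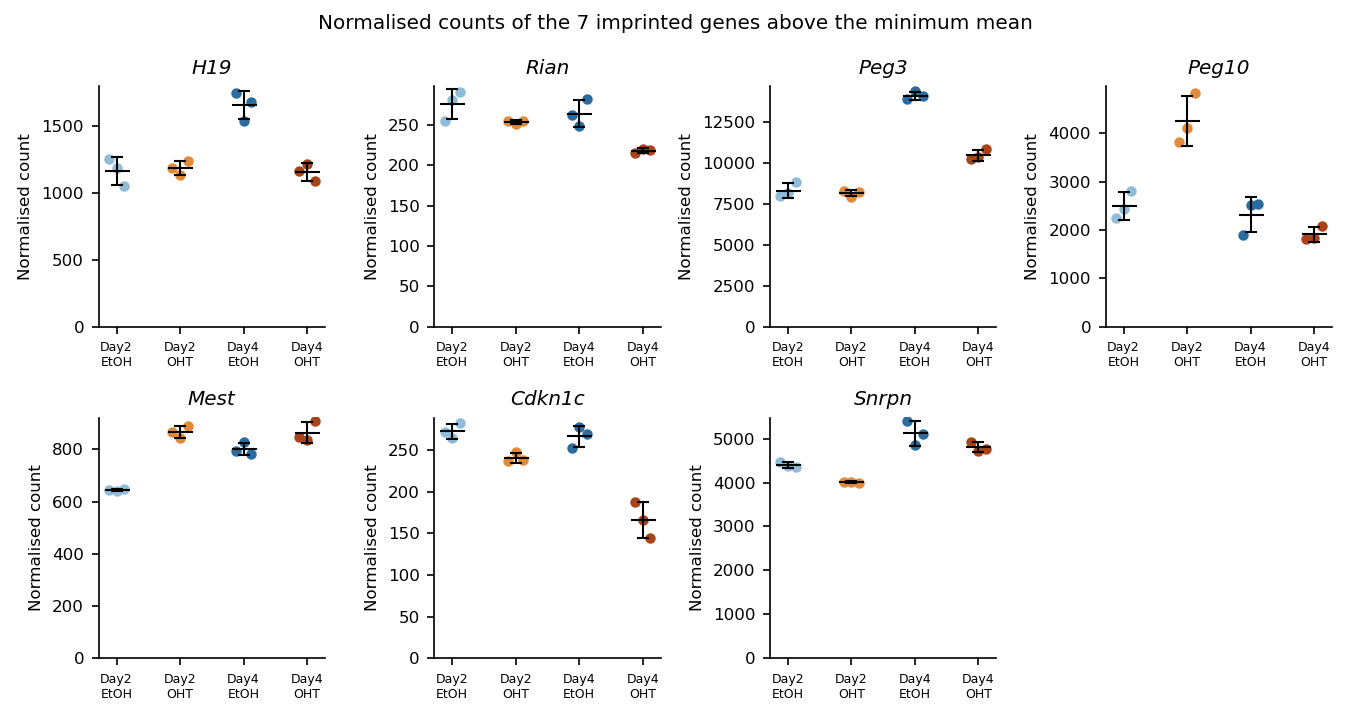
Normalised counts of the 7 tested genes by group, 1 point per library, with the mean and SD of 3 libraries in black. *Peg3* and *H19* are highest in the 3 Day4_EtOH libraries, *Peg10* is highest in the 3 Day2_OHT libraries, and *Cdkn1c* is lowest in the 3 Day4_OHT libraries.

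*H19* (ENSMUSG00000000031.16) and *Igf2* (ENSMUSG00000048583.16) are neighbours on distal chromosome 7 that share enhancers and an imprinting control region bound by CTCF. On GRCm38, *H19* spans chr7:142575529-142578143 on the minus strand. Its normalised counts (scaled by size factors over all 12 libraries) were 1253, 1187 and 1049.6 in Day2_EtOH, 1186, 1135 and 1237 in Day2_OHT, 1745, 1535 and 1676 in Day4_EtOH, and 1162, 1214 and 1085 in Day4_OHT. The 3 Day4_EtOH libraries lay above all 9 others, and the other 3 groups overlapped. *H19* was thus 0.697-fold of the EtOH level in OHT libraries on Day 4 (log2 fold change -0.52, SE 0.07, DESeq2 adjusted p = 5.7e-14) and did not differ detectably on Day 2 (0.03, 95% interval -0.12 to 0.17, adjusted p = 0.87). Between the days it rose 1.42-fold in EtOH (log2 0.50, SE 0.07, adjusted p = 1.3e-10), whereas in OHT the log2 difference was -0.04 (95% interval -0.17 to 0.10, adjusted p = 0.73).

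*Igf2* spans chr7:142650766-142666816 on the minus strand, and 3 annotated genes overlap it, among them the antisense gene *Igf2os*. Its normalised counts were 15.1, 10.6 and 8.68 in Day2_EtOH, 15.0, 17.8 and 19.3 in Day2_OHT, 23.0, 19.8 and 31.4 in Day4_EtOH, and 20.7, 20.0 and 27.8 in Day4_OHT. Every library of Day 4 lay above every library of Day 2, but the counts stay near those of few reads, and the log2 difference between the days in EtOH (1.09, SE 0.49, DESeq2 adjusted p = 0.076) did not pass the threshold.

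*Cdkn1c* (ENSMUSG00000037664.13), in the neighbouring *Kcnq1ot1* cluster, encodes the cyclin-dependent kinase inhibitor p57. It spans chr7:143458339-143461050 on the minus strand. Its normalised counts were 271, 264 and 282 in Day2_EtOH, 236, 248 and 239 in Day2_OHT, 253, 278 and 269 in Day4_EtOH, and 188, 166 and 144 in Day4_OHT. All OHT libraries lay below all EtOH libraries of the same day. The difference passed the test on Day 4, where *Cdkn1c* was 0.621-fold of the EtOH level (log2 -0.69, SE 0.14, DESeq2 adjusted p = 1.2e-05), and not on Day 2 (log2 -0.18, 95% interval -0.42 to 0.07, adjusted p = 0.39). It fell by 0.54 on the log2 scale from Day 2 to Day 4 in OHT (adjusted p = 0.0010), and the log2 difference was -0.03 in EtOH (adjusted p = 0.88). Among the other CIP/KIP inhibitors, *Cdkn1a* (p21) was 211 ± 18.1 and 194 ± 4.21, and *Cdkn1b* (p27) 1502 ± 84.8 and 1769 ± 66.3 normalised counts, in Day4_EtOH and Day4_OHT. *Cdkn1b* was called lower in OHT on Day 2 (log2 -0.21, DESeq2 adjusted p = 0.0081) and higher on Day 4 (0.23, adjusted p = 4.0e-04). *Cdkn1a* was called on neither day (0.13, adjusted p = 0.48 and -0.12, adjusted p = 0.57).

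*Peg3* (ENSMUSG00000002265.16) encodes a large zinc finger protein known for its role in growth and maternal behaviour, and spans chr7:6703892-6730431 on the minus strand, where no other annotated gene overlaps it. Normalised counts were 7988, 8148 and 8827 in Day2_EtOH, 8287, 7942 and 8257 in Day2_OHT, 13894, 14388 and 14099 in Day4_EtOH, and 10234, 10366 and 10849.9 in Day4_OHT. The Day 2 groups overlapped, and the Day4_OHT libraries lay between them and the Day4_EtOH libraries without touching either. From Day 2 to Day 4 *Peg3* rose 1.69-fold in EtOH (log2 0.76, SE 0.04, DESeq2 adjusted p = 7.6e-75) and 1.29-fold in OHT (0.36, SE 0.04, adjusted p = 3.1e-20). On Day 4 it was 0.741-fold of the EtOH level in OHT libraries (log2 -0.43, SE 0.03, adjusted p = 7.5e-39).

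On Day 2 the log2 difference of *Peg3* was -0.03 (95% interval -0.12 to 0.07, DESeq2 adjusted p = 0.78). After removal of the trend of fold change with transcript length, *Peg3*, whose longest transcript has 8694 bases, was called lower on Day 2 as well, by -0.18 (DESeq2 adjusted p = 2.9e-04). *Usp29*, which shares the bidirectional start with *Peg3*, had 469, 458 and 457 normalised counts in Day4_EtOH and 417, 415 and 424 in Day4_OHT. These ranges did not overlap, but the log2 difference of -0.14 did not pass the test (SE 0.09, DESeq2 adjusted p = 0.26).

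*Peg10* (ENSMUSG00000092035.8), a gene derived from a retrotransposon and required in the placenta, spans chr6:4747306-4760517 on the plus strand and overlaps no other annotated gene. Normalised counts were 2252, 2426 and 2807 in Day2_EtOH, 3818, 4104 and 4821 in Day2_OHT, 1902, 2522 and 2530.1 in Day4_EtOH, and 1815, 1826 and 2091 in Day4_OHT. All Day2_OHT libraries lay above the other 9, and the Day 4 groups overlapped because Day4_EtOH replicate 1 was low. *Peg10* was 1.70-fold of the EtOH level in OHT libraries on Day 2 (log2 0.77, SE 0.14, DESeq2 adjusted p = 1.9e-06) and 0.823-fold on Day 4, where the difference did not pass the test (log2 -0.28, 95% interval -0.57 to 0.00, adjusted p = 0.13). Without Day4_EtOH replicate 1 the Day 4 difference was called, at -0.40 (DESeq2 adjusted p = 1.6e-09). In OHT *Peg10* fell by 1.15 on the log2 scale between the days (SE 0.07, adjusted p = 1.9e-53), and in EtOH the difference was -0.11 (adjusted p = 0.68).

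Another RNA and a property of the libraries moved in part with *Peg10*. *Kcnq1ot1*, a long unspliced antisense RNA of the *Cdkn1c* cluster, had 2503, 3023 and 3777 normalised counts in Day2_EtOH, 4583, 4683 and 5467 in Day2_OHT, 1967, 3973 and 4228 in Day4_EtOH, and 1779.8, 1773 and 1713 in Day4_OHT. The share of counts on TEC loci (sequences annotated as to be experimentally tested) was 0.101% to 0.124% in Day2_EtOH and 0.143% to 0.155% in Day2_OHT. On Day 4 it was 0.0839% in Day4_EtOH replicate 1 against 0.117% and 0.119% in the other 2 libraries of that group. In Day4_OHT it was 0.0888% to 0.0921%. Both were thus highest in Day2_OHT, as was *Peg10*, and in Day4_EtOH replicate 1 both were low. Within Day4_OHT they went the other way: replicate 3 had the highest *Peg10* (2091) but the lowest *Kcnq1ot1* (1713) and TEC share (0.0888%). Their part in the differences of *Peg10* was not tested. *Sgce*, which starts beside *Peg10*, had 111, 141 and 113 normalised counts in Day2_EtOH and 156, 146 and 143 in Day2_OHT (log2 0.29, SE 0.18, DESeq2 adjusted p = 0.30). Its mean on Day 4 was below the minimum, at 70.9 ± 11.4 in Day4_EtOH and 87.3 ± 10.7 in Day4_OHT, with overlapping ranges. Over all 12 libraries, the Day 4 effect of OHT on *Sgce* minus the Day 2 effect was log2 0.01 (SE 0.25, DESeq2 adjusted p = 0.99), against -1.05 for *Peg10*.

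**Figure D3:**
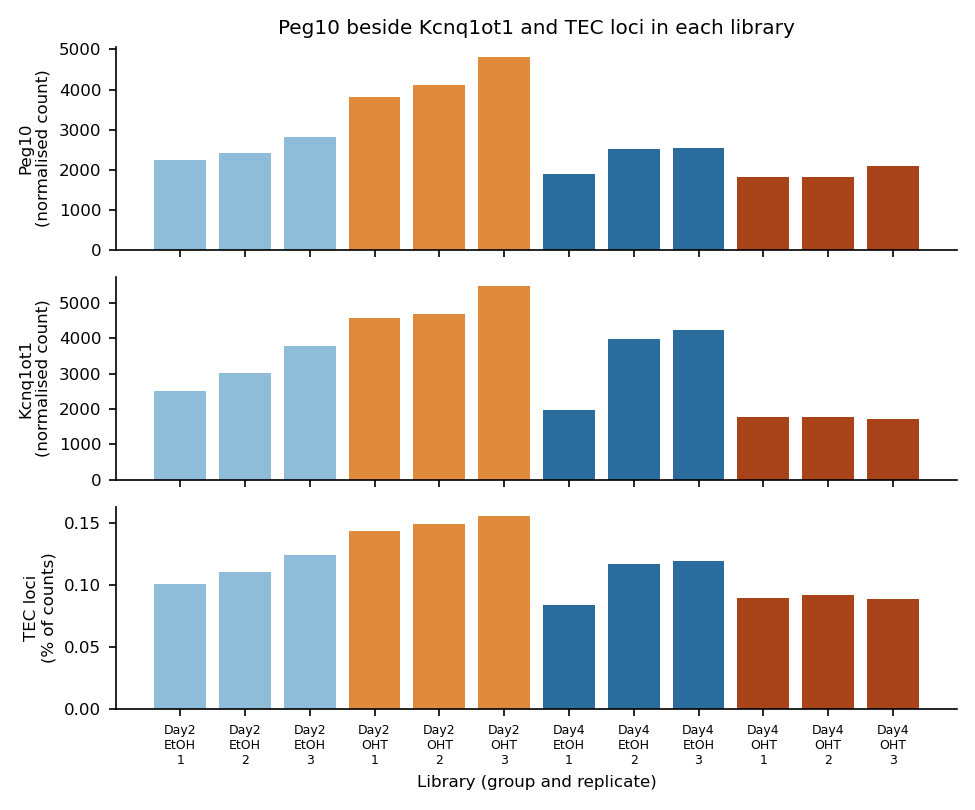
*Peg10* and *Kcnq1ot1* (normalised counts) and the share of counts on TEC loci (percent) in each of the 12 libraries, 1 bar per library. All 3 are highest in the Day2_OHT libraries, and Day4_EtOH replicate 1 stands below the other 2 libraries of its group in all 3.

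*Mest* (ENSMUSG00000051855.15) encodes a predicted hydrolase expressed in the mesoderm, and spans chr6:30723547-30748465 on the plus strand; the opposite gene *Copg2* overlaps it. Normalised counts were 646, 639.6 and 648 in Day2_EtOH, 865, 843 and 888 in Day2_OHT, 794, 828 and 781 in Day4_EtOH, and 847, 837 and 909 in Day4_OHT. Libraries labelled OHT lay above those labelled EtOH on both days, and the spread within each group was small. The difference on Day 2 was 1.34-fold (log2 0.43, SE 0.08, DESeq2 adjusted p = 2.2e-06), and on Day 4 it did not pass the test (log2 0.11, 95% interval -0.04 to 0.25, adjusted p = 0.28). Between the days *Mest* rose 1.24-fold in EtOH (log2 0.31, SE 0.08, adjusted p = 4.9e-04), and the log2 difference in OHT was 0.00 (95% interval -0.14 to 0.15, adjusted p = 0.98). *Copg2*, a coat protein subunit, was called higher on Day 4 (log2 0.39, SE 0.04, DESeq2 adjusted p = 1.1e-18), with a log2 difference of 0.00 on Day 2. The strand setting used for counting is not given in the sources used here. The posterior SD that the counting program RSEM gave for *Mest* was 0 in every library, so it divided no read pairs between *Mest* and another gene.

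*Snrpn* (ENSMUSG00000102252.5) encodes the spliceosomal protein SmN and lies in the cluster whose human counterpart is lost in Prader-Willi syndrome, at chr7:59982495-60140219 on the minus strand. Normalised counts were 4476, 4371 and 4349.8 in Day2_EtOH, 4019, 4017 and 3983 in Day2_OHT, 5408, 4848 and 5111 in Day4_EtOH, and 4926, 4715 and 4754 in Day4_OHT. The groups lay apart on Day 2 and overlapped on Day 4. *Snrpn* was 0.911-fold of the EtOH level on Day 2 (log2 -0.13, SE 0.04, DESeq2 adjusted p = 0.017) and the log2 difference was -0.10 on Day 4 (SE 0.04, adjusted p = 0.072). The Day 2 call was lost without Day2_EtOH replicate 1 (adjusted p = 0.092), Day2_EtOH replicate 2 (0.062) or Day2_OHT replicate 2 (0.055), where the log2 values were -0.13, -0.14 and -0.13. Between the days it rose 1.16-fold in EtOH (adjusted p = 2.0e-05) and 1.20-fold in OHT (adjusted p = 1.4e-09).

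*Snrpn* and *Snurf* share one transcript, so that RSEM divided reads between them, with a posterior SD of up to 15.4 counts for *Snrpn*. A further protein-coding gene model on the same strand, *Gm38393*, overlaps *Snrpn* and held 2010.2 to 4744 expected counts per library. The value of *Snrpn*, at 3656.5 to 5239.7 expected counts, therefore depends on how reads were divided at this locus. The part of that division in the differences of *Snrpn* was not tested. *Snurf* had a log2 difference of 0.02 on Day 2 (DESeq2 adjusted p = 0.97) and -0.41 on Day 4 (SE 0.16, adjusted p = 0.038). *Snhg14*, the long host transcript of small nucleolar RNAs downstream, was called higher on Day 4 (log2 0.34, SE 0.04, adjusted p = 3.2e-13). *Snrpb*, the paralogue that encodes SmB, had a mean of 8514 ± 184 normalised counts in Day4_EtOH and 8511 ± 16.2 in Day4_OHT.

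*Meg3*, *Rian* and *Mirg* are consecutive non-coding transcripts of the *Dlk1*-*Dio3* region on chromosome 12, host to many small nucleolar RNAs and microRNAs. *Rian* (ENSMUSG00000097451.10) spans chr12:109603940-109661716 on the plus strand, with 19 annotated genes inside or overlapping it on that strand. Its normalised counts were 254, 280.3 and 291 in Day2_EtOH, 254, 251 and 255 in Day2_OHT, 262, 248 and 281 in Day4_EtOH, and 215, 220.4 and 219 in Day4_OHT. The 3 Day4_OHT libraries lay below all 9 others. With DESeq2 neither treatment difference passed the threshold (log2 -0.12, SE 0.13, adjusted p = 0.61 on Day 2; -0.28, SE 0.13, adjusted p = 0.083 on Day 4), but edgeR called the Day 4 difference (log2 -0.28, adjusted p = 0.011).

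*Meg3* (ENSMUSG00000021268.17, chr12:109541001-109571726, plus strand) had 64.3, 41.7 and 61.9 normalised counts in Day2_EtOH, 78.8, 65.7 and 55.5 in Day2_OHT, 37.6, 52.4 and 56.7 in Day4_EtOH, and 38.7, 33.6 and 31.4 in Day4_OHT. Within the OHT arm every Day 4 library lay below every Day 2 library (log2 -0.95, SE 0.29, DESeq2 adjusted p = 0.0036), but its mean lies below the minimum and it was not called. *Mirg* (ENSMUSG00000097391.8, chr12:109729764-109749460, plus strand) had 15.1, 25.0 and 17.4 in Day2_EtOH, 17.0, 16.9 and 18.5 in Day2_OHT, 16.5, 21.7 and 24.3 in Day4_EtOH, and 9.87, 18.8 and 27.0 in Day4_OHT, and its groups overlapped in all comparisons of treatment and of day. The paternally expressed genes of the region were low too: *Dlk1*, a Notch ligand homologue, had 14.1 to 44.5 normalised counts over the 12 libraries, and *Rtl1*, a retrotransposon-derived gene, 0 to 3.1.

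The difference between the Day 4 and the Day 2 effect of OHT was tested for each gene as an interaction. It was called for 5 of the 7 tested genes, all negative, against 13.6% of 11612 tested genes called negative and 18.7% called positive (32.3% in all). With total counts as scaling this split was 2098 negative and 1664 positive in place of 1574 and 2173, and the same 5 members were called. The log2 difference was -1.05 for *Peg10* (SE 0.20, DESeq2 adjusted p = 3.5e-06), -0.54 for *H19* (SE 0.10, adjusted p = 1.7e-06), -0.51 for *Cdkn1c* (SE 0.16, adjusted p = 0.012), -0.40 for *Peg3* (SE 0.06, adjusted p = 2.4e-11) and -0.31 for *Mest* (SE 0.09, adjusted p = 0.0039). *Rian* (-0.16, adjusted p = 0.53) and *Snrpn* (0.04, adjusted p = 0.68) were not called. With the trend of fold change with transcript length removed, the value for *Peg3* was -0.23 and still called. Without Day4_OHT replicate 3 the value for *Cdkn1c* was -0.41 and no longer called (DESeq2 adjusted p = 0.077).

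**Figure D4:**
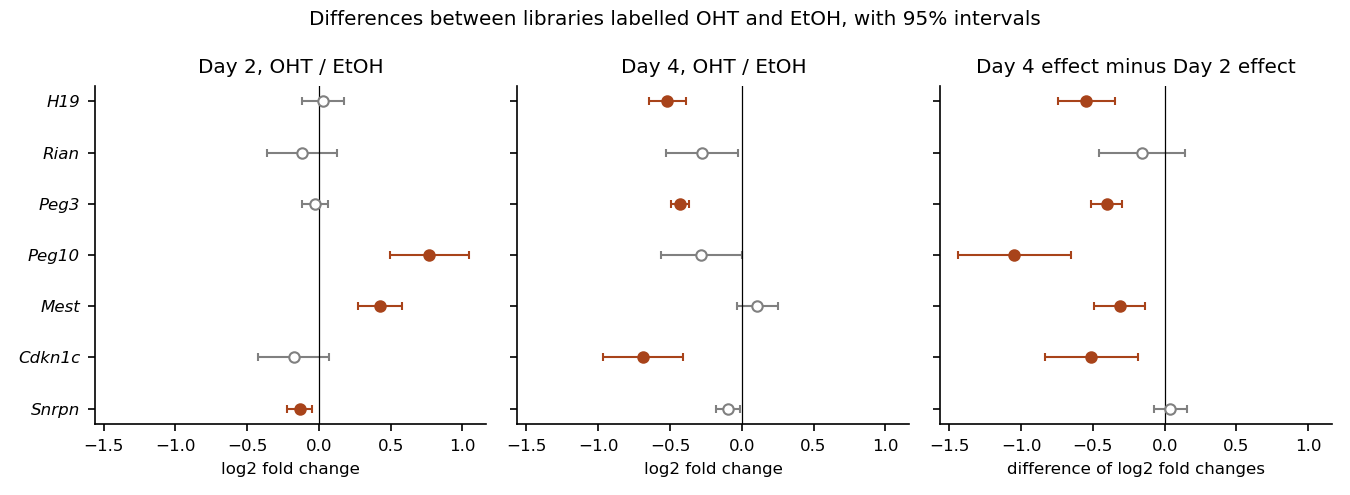
Log2 fold change of libraries labelled OHT over those labelled EtOH on Day 2 and on Day 4, and the difference between the days, for the 7 tested genes, with 95% intervals from DESeq2; filled points were called. *Peg10* and *Mest* lie to the right of 0 on Day 2, *Cdkn1c*, *H19* and *Peg3* to the left on Day 4, and 5 genes to the left in the difference.

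Without OHT, 4 of the 7 tested genes were higher on Day 4 than on Day 2 (*Peg3*, *H19*, *Mest* and *Snrpn*) and 0 were lower, against 20.6% and 20.5% (41.1% in either direction) of 11570 tested genes. In the libraries labelled OHT, 2 were higher (*Peg3* and *Snrpn*) and 2 lower (*Peg10* and *Cdkn1c*), against 30.8% and 23% (53.8% in either direction) of 11633 tested genes. These comparisons share libraries with those of treatment, so their values are not independent of them.

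On Day 2, 1 of the 6 mESC markers was called higher and 2 lower, beside 9.17% and 10.7% of all tested genes. On Day 4, 4 of the 6 were called higher and 0 lower, beside 23.5% and 21.7%. Sums of fibroblast and of trophoblast markers differed between the arms on Day 4, each made up mostly by 1 gene. The summed level of 6 fibroblast markers (*Col1a1*, *Col1a2*, *Col3a1*, *Thy1*, *Postn* and *Lum*) was 2.21 to 3.06 TPM in Day4_EtOH and 0.85 to 1.36 TPM in Day4_OHT, and it was 2.59 to 3.17 and 2.28 to 2.81 TPM in the Day 2 groups. *Thy1* made up most of it, at 2.18 ± 0.413 and 0.777 ± 0.289 TPM on Day 4, while *Col1a1* was at 0.193 ± 0.0351 and 0.160 ± 0.0400 TPM and *Lum* had at most 1 count in any library. The part of fibroblasts in the Day 4 differences was not tested. Summed trophoblast markers (4 genes) were at 0.95 to 1.15 TPM in Day4_EtOH and 1.18 to 1.31 TPM in Day4_OHT, and at 1.62 to 1.86 and 1.73 to 1.99 TPM in Day2_EtOH and Day2_OHT. *Eomes*, which made up most of this sum, was called higher in OHT on Day 4 (log2 0.47, SE 0.18, DESeq2 adjusted p = 0.027), fell by 1.14 on the log2 scale between the days in EtOH and by 0.61 in OHT, and its part in the differences of the members was not tested. Summed markers of primitive endoderm (5 genes) and of germ layers (5) overlapped between the arms on both days, at or below 1.79 TPM in every library.

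Among 46 other imprinted genes, calls were made in both directions. On Day 2, 6 of 32 tested were called higher and 2 lower, beside 9.17% and 10.7% of all tested genes, and the median log2 fold change was 0.00. *Kcnq1ot1* (0.66, SE 0.19, DESeq2 adjusted p = 0.0068), *Zdbf2* (0.36), *Ppp1r9a* (0.34) and *Impact* (0.26) were the most positive among the called genes; *Plagl1* (0.38, adjusted p = 0.19) was not called. *Gnas*, which encodes the stimulatory G protein subunit (-0.39), and *Grb10*, an adaptor that restrains insulin and IGF receptor signalling (-0.32, adjusted p = 7.0e-08), were the 2 called lower.

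On Day 4, 10 of 30 tested were called higher and 8 lower, beside 23.5% and 21.7% of all tested genes, with a median of 0.02. *Peg12* (0.79, SE 0.10, DESeq2 adjusted p = 1.1e-13), *Mkrn3* (0.47), *Impact* (0.46) and *Trappc9* (0.40) led the positive calls. The most negative calls were *Grb10* (-1.08, SE 0.06, adjusted p = 2.3e-75), *Kcnq1ot1* (-0.95, adjusted p = 0.016), *Nnat* (-0.67) and *Gab1* (-0.44). *Grb10* had 2306, 2193 and 2127 normalised counts in Day4_EtOH and 1011, 1035 and 1089 in Day4_OHT, so it was lower in OHT libraries on both days without overlap. The interaction was called positive for 8 and negative for 5 of 32, beside 18.7% and 13.6% of all tested genes.

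**Figure D5:**
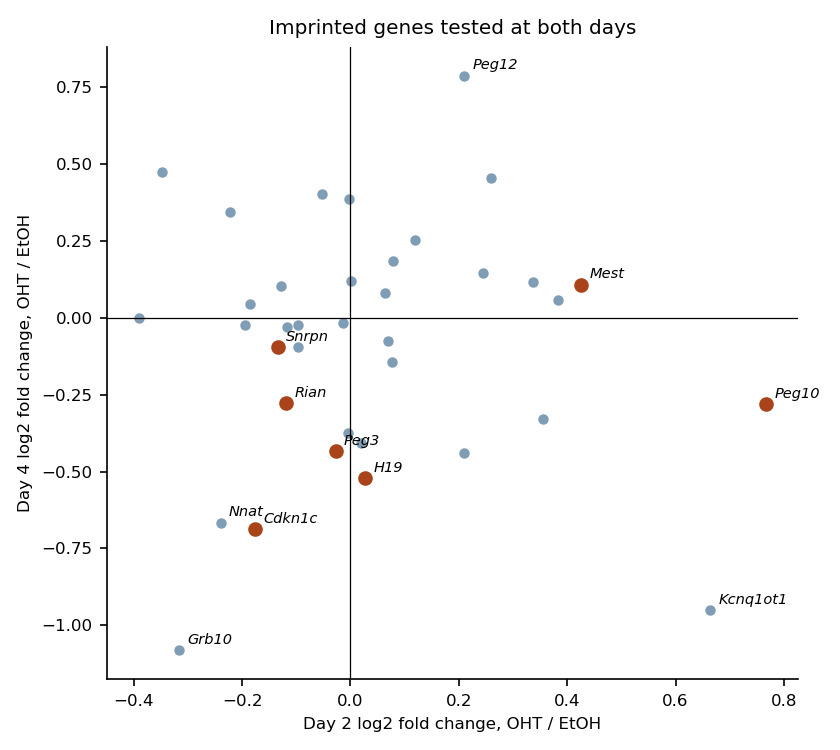
Log2 fold change of OHT over EtOH libraries on Day 2 (horizontal) and Day 4 (vertical) for the 37 imprinted genes tested on both days; larger dark points are the 7 members and smaller pale points the other listed genes. *Peg10* and *Kcnq1ot1* lie at lower right, *Grb10* and *Cdkn1c* at lower left, and *Peg12* is the highest.

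Of 16 genes that set or keep imprints, all were tested, and 0 were called higher and 4 lower on Day 2, beside 9.17% and 10.7% of all tested genes. *Dnmt1*, the maintenance DNA methyltransferase, fell from 10878, 11015 and 11023 normalised counts in Day2_EtOH to 7758, 7900.3 and 7868 in Day2_OHT (log2 -0.48, SE 0.04, DESeq2 adjusted p = 1.7e-35). On Day 4 it was 12676, 12751 and 12688 against 8064, 8098 and 8194 (log2 -0.65, SE 0.03, adjusted p = 3.2e-106). *Dppa3*, which encodes the maternal factor Stella that protects marks in the zygote, was lower on both days too (-0.37 and -0.32, adjusted p = 1.0e-07 and 3.0e-06), followed on Day 2 by the histone methyltransferase gene *Ehmt2* (-0.18) and *Eed*, a subunit of Polycomb repressive complex 2 (-0.16).

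On Day 4, 4 of the 16 were called higher and 5 lower, beside 23.5% and 21.7% of all tested genes; *Atrx* (0.34), *Smchd1* (0.15), *Arid4a* (0.14) and *Ezh2* (0.13) were the 4 called higher, and *Trim28* (-0.17) and *Hells* (-0.14) followed *Dnmt1* and *Dppa3* among the negative. *Zfp57* was not called in either comparison of treatment and rose between the days in both arms (log2 0.65 in EtOH and 0.61 in OHT). From Day 2 to Day 4, 11 of the 16 were called higher in each arm, with 2 lower in EtOH and 1 in OHT; over all tested genes 20.6% and 30.8% were called higher, and 20.5% and 23% lower, in EtOH and in OHT. DNA methylation was not measured in these libraries.

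Of the 10 members, 0 were on the study's list of genes bound by PRDM10. Among the other lists, *Magel2* and *Gnas* of the 46 imprinted genes and *Dnmt1* and *Eed* of the 16 maintenance genes were on it. The share of all counted genes on the bound list was not computed, so these counts do not tell the lists from other genes. *Magel2* had mean normalised counts of 24.1 ± 3.77 and 6.94 ± 2.14 in Day2_EtOH and Day2_OHT, and 29.3 ± 2.28 and 10.6 ± 2.57 in Day4_EtOH and Day4_OHT, below the minimum mean.

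The genes most like each member over the 12 libraries were found by the root mean square (RMS) difference between log2 normalised counts, each centred on its own mean, among genes above the minimum mean. *H19* was closest to *E2f2* (0.0540) and *Kifc3* (0.0764), and *Peg3* to *Dpp4* (0.0630) and *Mmp28* (0.0831). *Peg10* was closest to *Wnk1* (0.0626) and *Ep300* (0.0769), against an RMS of 0.450 for its own variation. The nearest to *Mest* were *Wdfy3* (0.0504) and *Prune2* (0.0657), to *Cdkn1c* *Mitf* (0.0858) and *Emb* (0.104), to *Rian* *Nhlrc2* (0.0480) and *Bdp1* (0.0531), and to *Snrpn* *BC031181* (0.0284) and *Ppm1g* (0.0320). None of these neighbours in pattern is a member, but only 7 of the 11616 genes above the minimum mean were members. Their absence therefore says little about how alike the members are.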

How the data were processed

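Sample titles gave the 4 groups of 3 libraries. Per the study's methods and the labels, the authors mapped stranded paired reads to GRCm38.p6 with STAR 2.6.0c and quantified GENCODE vM18 genes with RSEM. The deposited expected counts are RSEM's estimates of read pairs per gene, which need not be whole because pairs mapping to several genes are shared, and the deposited TPM values are levels per effective length, scaled within each library. Neither the strand setting nor any removal of PCR duplicates is given in the sources used here. The authors' tables of log2 fold changes and p-values for each day were used only for symbols. Symbols were found for 54079 genes, and coordinates and overlaps were read from GENCODE vM21 (GRCm38) for as many. Sequences come from RefSeq.

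Expected counts were rounded and tested with DESeq2 1.42.0 (R 4.3.3; the Wald test, median-of-ratios size factors, independent filtering, no shrinkage), 3 libraries against 3, as the authors used DESeq2 (1.22.2). Called genes had a Benjamini-Hochberg adjusted p below 0.05, over all genes that passed the independent filtering, and a mean normalised count above 100. The interaction of treatment and day was fitted over all 12 libraries. Printed normalised counts use size factors over all 12 libraries, and SDs are over 3 libraries. Intervals cover 95%. The scripts were tested on simulated data.

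Members and lists were chosen with earlier results of these data known. All 10 members are named. Of the other imprinted and maintenance genes, the 4 most positive and 4 most negative calls on each day, the neighbours *Sgce*, *Usp29*, *Copg2*, *Snurf*, *Snhg14*, *Rtl1* and *Dlk1*, and the 2 genes nearest in pattern to each tested member are named; *Magel2*, *Plagl1*, *Gm38393*, *Zfp57*, *Eomes*, *Thy1*, *Col1a1*, *Lum* and the paralogues were named after their values were seen. Alternatives were edgeR 4.0.16, TMM factors, total counts, effective lengths as offsets, removal of the trend with length, a replicate block, one fit of all libraries, other rules for the minimum, and leaving out each library. No 2 libraries of a group agreed within sampling noise. Read pairs carried no molecular identifiers, so PCR copies were not told apart.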

Additional observations from a re-analysis of the deposited data

Results flagged for a closer look

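The effect of OHT differed between Day 4 and Day 2, by the interaction of treatment and day in DESeq2, for 5 members. The differences of the log2 fold changes (Day 4 minus Day 2) were -1.05 for *Peg10*, -0.54 for *H19*, -0.51 for *Cdkn1c*, -0.40 for *Peg3* and -0.31 for *Mest*. For *Peg10* the Day 2 effect was 0.77 and the Day 4 effect -0.28, for *H19* 0.03 and -0.52, for *Cdkn1c* -0.18 and -0.69, for *Peg3* -0.03 and -0.43, and for *Mest* 0.43 and 0.11. Over all 11612 genes tested the median difference was 0.03.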

How the results depend on the processing

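Of 170 recomputed counts of called members, 164 stayed within 1.5 times the reported count and 6 moved. On Day 2 the count called lower went from 1 (*Snrpn*) to 0 with total counts as scaling and with the replicate block, and it ranged from 0 to 1 when single libraries were left out. On Day 4 the count called lower was 6 with edgeR, which added *Rian*, *Peg10* and *Snrpn*, and 3 to 4 without single libraries. The negative interaction was called for 4 to 5 members without single libraries. The cause of these changes was not tested.

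Of 595 recomputed values of the 7 tested genes, 15 changed sign, all of them for differences that were not called; of 255 values of *Igf2*, *Meg3* and *Mirg*, too low to judge, 18 did. Every called value of a member passed under all alternatives run, except *Snrpn* on Day 2 and the interaction of *Cdkn1c*. With total counts as scaling, the log2 difference of *Peg3* on Day 2 was 0.010, that of *Mest* between the days in OHT -0.026 and the interaction of *Snrpn* -0.0034. With effective lengths as offsets, *Cdkn1c* between the days in EtOH was 0.058, *Mest* between the days in OHT -0.0023 and the interaction of *Rian* 0.16; in one fit of all libraries *Mest* between the days in OHT was -0.00022. Leaving out single libraries gave -0.039 to 0.080 for *H19* and -0.060 to 0.019 for *Peg3* on Day 2, -0.18 to 0.018 for *Peg10* and -0.066 to 0.0045 for *Cdkn1c* between the days in EtOH, and -0.073 to 0.0074 for *H19* and -0.034 to 0.027 for *Mest* between the days in OHT.

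Over all genes above the minimum mean, deviations of same-numbered libraries correlated at -0.42 to 0.29. With 3 libraries per group these values cannot show whether the replicate number pairs libraries, and the labels name no pairing. *Peg10* rose from replicate 1 to replicate 3 in every group, whereas *H19* kept no such order. With the replicate block, *Snrpn* on Day 2 was -0.13 and lost its call (DESeq2 adjusted p = 0.11), *Peg10* on Day 4 was -0.27 and gained one (adjusted p = 0.0028), and over all genes on Day 2 the counts fell from 1068 higher and 1240 lower to 648 and 636; without Day2_EtOH replicate 1 they were 617 and 587, and without Day2_EtOH replicate 2 they were 699 and 713. Depth limits *Igf2*, *Meg3* and *Mirg*.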
